A study of Mus musculus with 4 samples.

Results

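Goblet cells make and release the mucus that covers the intestinal surface, and 32 genes of goblet cell secretion and maturation were compared between intestinal crypts with and without CREPT. The genes were listed by name and fell into 5 roles, namely secreted mucus proteins, transcription factors, enzymes and chaperones of mucin folding and glycosylation, other goblet cell products, and transmembrane mucins. All 32 were found among the 53845 rows of the count table, and all 32 were among the 17504 genes that had enough counts to be tested. Of the 32, 31 were matched by their symbol and Fam3d was matched through its synonym Oit1.

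Crypts are the epithelial pits at the base of the villi, where stem cells and young secretory cells lie. RNA-seq libraries were made from crypts of WT mice, labelled wildtype, and of Vil-CREPTKO mice, all of strain C57BL/6. In Vil-CREPTKO mice the villin promoter drives Cre in the intestinal epithelium, and Cre removes exon 3 of CREPT (gene Rprd1b, whose protein binds RNA polymerase II) from CREPT fl/fl alleles, while non-epithelial cells of the gut keep the gene. Mice were 6 to 8 weeks old and of both sexes. No age or sex is given for a library. The labels name the intestine without a region, while the study's methods for crypt isolation start from the small intestine. The labels also do not say whether WT mice carried the floxed alleles or Cre. Each genotype had 2 libraries, described as biological replicates, so every test below rests on 2 against 2.

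Depth was even, from 47241049 to 49369315 counts a library. The targeted gene, Rprd1b, averaged 61.0 ± 0.773 CPM in WT (SD, n = 2, library-scaled read counts with TMM factors) and 27.6 ± 1.93 CPM in the knockout (SD, n = 2), which is 45.3% of WT. Mitochondrial genes took 10.2% of the counts of Vil-CREPTKO replicate 1 against 6.75% to 7.62% in the other 3 libraries, and Xist at 863 CPM marked WT replicate 2 as female, while the other 3 libraries had Y-linked counts. Summed colon markers were at 9.53 to 14.4 CPM and summed markers of the proximal small intestine at 365 to 433 CPM.

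The mucus gel is built from gel-forming mucins, chiefly MUC2, which are folded in the endoplasmic reticulum, densely O-glycosylated in the Golgi apparatus and packed into granules together with trefoil peptides and other small proteins. Atoh1 sets the secretory lineage of the intestine, and Spdef, the Foxa factors and ER-bound factors of the CREB3 family act in goblet cell maturation. Goblet cells share parts of this machinery with other secretory cells, such as Paneth cells, and transmembrane mucins are also made by absorptive enterocytes.

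Of the 32 goblet cell genes, 3 fell and 29 did not pass the test in either direction. Creb3l4, Guca2a and Tpsg1 passed the test as lower in Vil-CREPTKO (adjusted p under 0.05 over all genes, edgeR quasi-likelihood test), and none of the 32 passed as higher. That is 9.38% of the members, beside 2.29% of all genes tested that were lower and 0.423% that were higher by the same rule. The members were chosen with earlier results of these data known, so the shares here and below only describe the list. At an unadjusted p under 0.05, 11 members were lower (9.76% of all genes tested) and 2 were higher (4.49% of all genes). DESeq2 called 5 members lower, beside 3.96% of the genes to which it gave an adjusted p, and 0 higher, beside 1.16%. With the added threshold of a 2-fold change, Creb3l4 and Tpsg1 remained, beside 1.34% of all genes tested. The defining markers of goblet cells (Muc2, Tff3, Clca1, Fcgbp, Zg16, Spink4 and Agr2) were counted in every library, and only Muc2 among them was low.

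**Figure D1:**
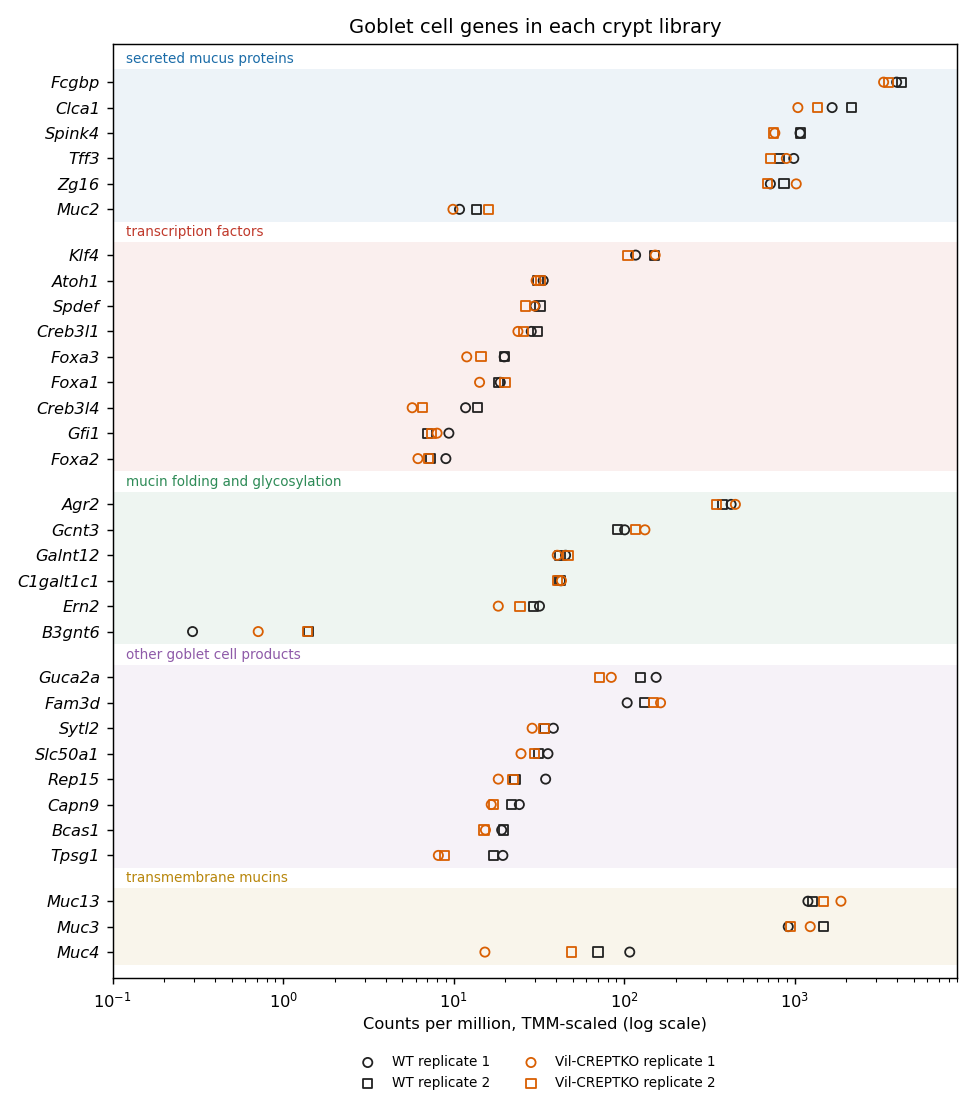
Level of each of the 32 goblet cell genes in each library, in CPM after TMM scaling on a log axis, grouped by role and ordered by mean level in WT. Black symbols are WT and orange symbols Vil-CREPTKO, circles are replicate 1 and squares replicate 2. Both orange symbols lie left of both black symbols for Creb3l4, Guca2a and Tpsg1, and Vil-CREPTKO replicate 1 lies far left for Muc4.

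Of the log2 fold changes of the 32 genes, 26 were negative and 6 positive, with a median of -0.18. The median over all genes tested was -0.0060, and 50.92% of all genes were negative. Both Vil-CREPTKO libraries were below both WT libraries in CPM for 17 members (53.1%, beside 24.2% of all genes tested), both were above for 3 members (9.4%, beside 21.0%), and the groups overlapped for 12. The median deviation from the WT mean was -0.31 in the first knockout library and -0.21 in the other, where all genes gave -0.013 and 0.0029. The members took 1.28% and 1.32% of all counts in WT and 1.06% and 1.09% in Vil-CREPTKO, before TMM scaling. After TMM scaling their summed level was 11970 and 13240 CPM in WT and 11490 and 10710 CPM in Vil-CREPTKO, a smaller difference. In bulk RNA of crypts, fewer goblet cells and less RNA of a gene per goblet cell cannot be told apart. The study counted fewer stained goblet cells per villus in the jejunum of Vil-CREPTKO mice, which is a count in villi and not in crypts. It also reports fewer stained goblet cells in the large intestine, with images of the rectum.

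**Figure D2:**
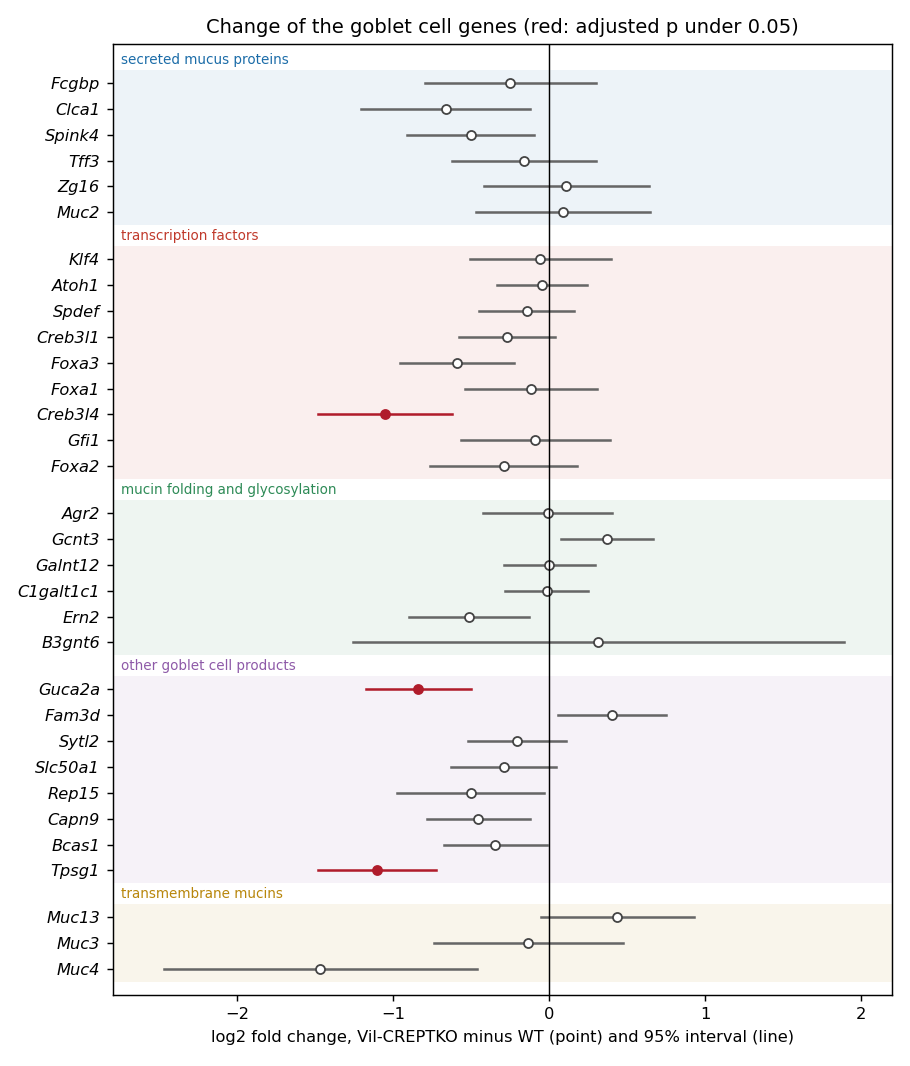
log2 fold change of each goblet cell gene, Vil-CREPTKO minus WT, as a point with its 95% interval from the edgeR fit as a line, grouped by role. Red points are the 3 genes with an adjusted p under 0.05 (Creb3l4, Guca2a, Tpsg1), and the intervals of 19 of the 32 genes include 0.

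The secreted proteins of the mucus gel held most of the reads of the 32 genes, and none of the 6 passed the test in either direction. Their median log2 fold change was -0.21, with 4 negative and 2 positive. Together they took 0.899% and 0.910% of the unscaled counts in WT and 0.649% and 0.720% in Vil-CREPTKO. After TMM scaling their summed level was 8406 and 9123 CPM in WT and 7051 and 7079 CPM in Vil-CREPTKO. Fcgbp, which encodes an IgG Fc-binding protein that crosslinks in the mucus, had the most reads of all members (CPM, not corrected for length), at 3959 and 4206 CPM in WT and 3320 and 3546 CPM in Vil-CREPTKO. Its groups did not overlap, but the difference of -0.25 on the log2 scale was close to its SE of 0.24 (edgeR adjusted p 0.715).

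Clca1, a secreted metalloprotease that processes mucus, had the lowest log2 fold change of this group. It was at 1657 and 2145 CPM in WT and at 1043 and 1356 CPM in Vil-CREPTKO. Both knockout libraries were thus below both WT libraries, with a mean of 63.1% of WT (log2 fold change -0.66, SE 0.24, adjusted p 0.231 in edgeR). Clca1 passed under DESeq2 (adjusted p 0.0133). Spink4, a Kazal-type protease inhibitor, was tight within each group at 1074 and 1077 CPM in WT and 764 and 752 CPM in Vil-CREPTKO. Its log2 fold change was -0.50 (SE 0.18, adjusted p 0.228 in edgeR), and it passed under DESeq2 alone (adjusted p 0.0178). Its lower level was as large in replicate 1 as in replicate 2, at -0.49 and -0.52 from the WT mean on the log2 scale.

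The other secreted proteins overlapped between the groups. Zg16, a lectin that binds bacterial cell walls, was at 719 and 865 CPM in WT and 1020 and 689 CPM in Vil-CREPTKO, so the WT libraries lay between the knockout libraries. The log2 fold change was 0.11 (SE 0.23, edgeR adjusted p 0.893). Tff3, the intestinal trefoil peptide, differed by -0.16 on the log2 scale (SE 0.20, adjusted p 0.796 in edgeR). Its 4 libraries were spread from 721 to 987 CPM, and leaving out 1 library moved the value to between -0.33 (without replicate 1 of the knockout) and -0.0087 (without replicate 2 of the knockout).

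Muc2, the gene of the gel-forming mucin itself, was counted at a low level in every library. WT crypts gave 552 and 672 reads and the knockout 430 and 789, or 10.8, 13.7, 9.89 and 16.1 CPM in that order. The knockout libraries lay on either side of both WT libraries, and the log2 fold change was 0.087 (SE 0.24, 95% interval -0.47 to 0.64, edgeR adjusted p 0.923). Per kilobase of exonic length, Muc2 in WT stood at 1.72 FPKM, rank 31 of the 32 members, beside 2255 for Spink4, 1828 for Tff3 and 389 for Fcgbp. The annotated exons of Muc2 sum to 7127 bp and its principal transcript to 2032 bp, how reads from its repeats were counted is not stated, and the part of either in the low count was not tested.

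The transcription factors stood at 2.57 (Gfi1) to 43.8 (Klf4) FPKM in WT and, apart from Creb3l4, none passed. All 9 log2 fold changes were negative, beside 50.92% of all genes tested, with a median of -0.14 and a range of -1.05 to -0.048. Both knockout libraries were below both WT libraries for 5 of the 9, beside 24.2% of all genes tested. Atoh1, the factor that sets the secretory fate, had the value nearest to 0. It was at 33.5 and 31.2 CPM in WT and 30.4 and 32.2 CPM in Vil-CREPTKO, at -0.048 on the log2 scale (SE 0.13, 95% interval -0.34 to 0.24, edgeR adjusted p 0.918). The study reports a substantial decrease of Atoh1 in Vil-CREPTKO crypts, citing panels of FPKM and of quantitative RT-PCR. Atoh1 is among the gene labels of the RT-PCR panel and not among those of the FPKM panel. The comparison is thus of RT-PCR there with RNA-seq counts here. Klf4, a zinc finger factor of differentiated epithelium and the most abundant of the 9, overlapped between the groups at 117 and 151 CPM in WT and 152 and 105 CPM in Vil-CREPTKO. Its log2 fold change was -0.057 (SE 0.20, edgeR adjusted p 0.938).

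Spdef, the ETS factor of goblet and Paneth cell maturation, was at 30.0 and 32.1 CPM in WT and 29.8 and 26.4 CPM in Vil-CREPTKO. Its groups were just apart (log2 fold change -0.14, SE 0.13, adjusted p 0.700 in edgeR). Of the 3 forkhead factors, Foxa3 moved furthest, from 19.8 and 19.9 CPM to 11.9 and 14.4 CPM, while Foxa1 overlapped between the groups at -0.12 (SE 0.19) and Foxa2 was at -0.29 (SE 0.21). The value for Foxa3 was -0.59 (SE 0.16) and did not pass (edgeR adjusted p 0.110). Gfi1, a zinc finger repressor of the secretory lineage, overlapped at -0.089 (SE 0.21), and Creb3l1, a bZIP factor held in the ER membrane until it is cleaved, was at -0.27 (SE 0.13). Foxa2 also belongs to a differentiation panel that the study shows from these same libraries, so its value is not independent of it.

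Creb3l4, which encodes another ER-bound bZIP factor of the same family, fell. The gene (ENSMUSG00000027938) is transcribed from the minus strand of chromosome 3, 90237500 to 90243512 in GRCm38. It had 599 and 676 counts in WT against 248 and 322 in the knockout, or 11.7 and 13.7 CPM against 5.71 and 6.56 CPM. The groups were well apart. The mean of the knockout was 48.2% of the WT mean (log2 fold change -1.05, SE 0.19, adjusted p 0.0252 in edgeR). The adjusted p rose to 0.0708 without WT replicate 2, the female library, and to 0.0515 without the first knockout library, at log2 fold changes of -0.93 and -0.96.

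The genes of mucin folding and glycosylation showed no common shift. Their median log2 fold change was -0.0056, 4 were negative and 2 positive, and none of the 6 passed. Agr2, a disulfide isomerase that folds MUC2, was the most abundant at 423 and 379 CPM in WT and 449 and 347 CPM in Vil-CREPTKO. The WT values lay inside the range of the knockout values (log2 fold change -0.011, SE 0.18, edgeR adjusted p 0.990). Ern2, the IRE1β stress sensor of mucus-secreting cells, had the lowest value, with 31.8 and 29.2 CPM in WT and 18.2 and 24.5 CPM in Vil-CREPTKO. Its groups were apart at -0.51 on the log2 scale (SE 0.17, adjusted p 0.185 in edgeR), and it passed only when Vil-CREPTKO replicate 2 was left out (-0.74, adjusted p 0.0430).

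Gcnt3, the enzyme that adds the core 2 and core 4 branches of O-glycans, had the highest log2 fold change of this group. It was at 101 and 91.3 CPM in WT and 132 and 116 CPM in Vil-CREPTKO, with the knockout above WT (log2 fold change 0.37, SE 0.13, adjusted p 0.219 in edgeR). Galnt12, which starts O-glycan chains, and C1galt1c1, the chaperone of core 1 synthase, were within 0.02 of 0 on the log2 scale with SEs of 0.13 and 0.12. B3gnt6, the core 3 synthase, had 15 and 69 counts in WT and 31 and 68 in Vil-CREPTKO, the lowest counts of all members, and its SE of 0.69 was the largest. The WT libraries alone differed by 2.25 on the log2 scale, and the log2 fold change of 0.31 had a 95% interval of -1.26 to 1.89.

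The other goblet cell products held the clearest decreases. Their median log2 fold change was -0.40, and 7 of the 8 were negative, beside 50.92% of all genes tested. The same 7 had both knockout libraries below both WT libraries, beside 24.2% of all genes tested. Of the 8, 2 passed as lower, beside 2.29% of all genes tested. Guca2a encodes guanylin, the peptide that activates guanylate cyclase C on the epithelial surface. The gene (ENSMUSG00000023247, plus strand of chromosome 4, 119637704 to 119639471 in GRCm38) had 154 and 125 CPM in WT and 83.9 and 72.0 CPM in Vil-CREPTKO. The groups did not overlap, and the mean level was 55.9% of WT (log2 fold change -0.84, SE 0.15, adjusted p 0.0236 in edgeR). Without WT replicate 1 the log2 fold change was -0.69 (adjusted p 0.0570).

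Tpsg1 encodes a membrane-anchored serine protease of the tryptase family. The gene (ENSMUSG00000033200) is transcribed from the plus strand of chromosome 17, 25369273 to 25374442 in GRCm38. It had 991 and 839 counts in WT and 353 and 432 in Vil-CREPTKO, or 19.4 and 17.0 CPM against 8.12 and 8.80 CPM. The groups were far apart against their spread. Its mean was 46.4% of WT (log2 fold change -1.11, SE 0.17, adjusted p 0.0119 in edgeR), and it passed in all 12 alternatives. Tpsg1 shares 158 bp with Cacna1h on the opposite strand, whose log2 fold change was -0.10 (SE 0.37, edgeR adjusted p 0.943), and whether counting used strand is not stated.

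Fam3d, a secreted cytokine-like protein, was the exception of this group, with 104 and 132 CPM in WT and 163 and 148 CPM in Vil-CREPTKO. The knockout libraries were above the WT libraries, by 0.40 on the log2 scale (SE 0.15, adjusted p 0.262 in edgeR). The other 5 did not pass. Capn9, a calpain protease of the digestive tract, was at -0.45 (SE 0.14, edgeR adjusted p 0.174), and Rep15, an effector of Rab15, at -0.51 (SE 0.21, edgeR adjusted p 0.312). The value for Rep15 was -0.18 without WT replicate 1 and -0.77 without WT replicate 2. Bcas1 at -0.35 (SE 0.14), the sugar transporter gene Slc50a1 at -0.29 (SE 0.15) and Sytl2, an effector of Rab27 in granule release, at -0.21 (SE 0.14) were smaller.

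**Figure D3:**
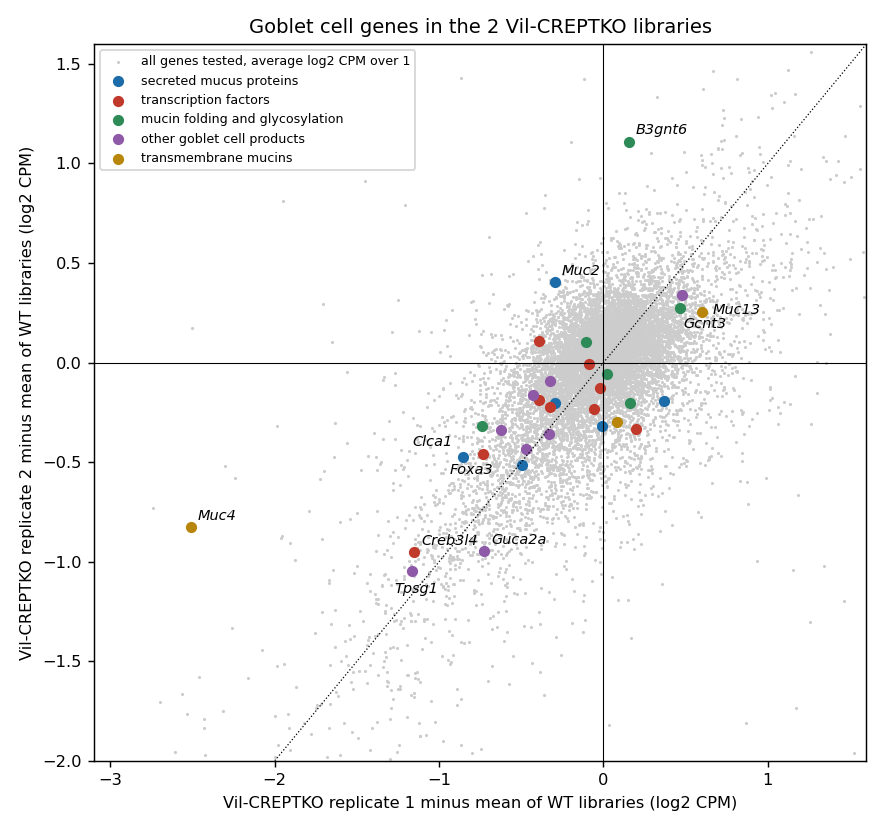
Deviation of each goblet cell gene from the mean of the WT libraries in log2 CPM, with Vil-CREPTKO replicate 1 on the x axis and replicate 2 on the y axis. Coloured points are the 32 genes by role, grey points are all genes tested with an average log2 CPM over 1 that lie inside the axes, and the dotted line marks equal deviations. Creb3l4 and Tpsg1 lie near the line at about -1 in both libraries, whereas Muc4 is at -2.51 in replicate 1 and -0.83 in replicate 2.

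The promoters of the 3 genes that fell are shown because they are the members whose change passed the test. RefSeq (GRCm38.p6) had a promoter entry for 19 of the 32 members, and the 250 bases before the start in RefSeq were read on the strand of the gene. The windows lie at chr3:90243513-90243762 on the minus strand for Creb3l4, chr4:119637482-119637731 on the plus strand for Guca2a (whose last 28 bases lie inside the gene as GENCODE M21 places it) and chr17:25369023-25369272 on the plus strand for Tpsg1. Capitals mark matches, on either strand, to CAGCTG (an E-box that Atoh1-type factors can bind), TGTTTAC (forkhead), CCACG (part of unfolded protein response elements), CACCC (Kruppel-like) or TTTATG (caudal homeobox).
Creb3l4: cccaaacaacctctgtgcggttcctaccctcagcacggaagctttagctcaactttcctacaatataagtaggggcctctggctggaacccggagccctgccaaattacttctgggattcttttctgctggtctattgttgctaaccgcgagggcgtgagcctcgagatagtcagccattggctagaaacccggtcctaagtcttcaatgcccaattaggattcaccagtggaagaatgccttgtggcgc
Guca2a: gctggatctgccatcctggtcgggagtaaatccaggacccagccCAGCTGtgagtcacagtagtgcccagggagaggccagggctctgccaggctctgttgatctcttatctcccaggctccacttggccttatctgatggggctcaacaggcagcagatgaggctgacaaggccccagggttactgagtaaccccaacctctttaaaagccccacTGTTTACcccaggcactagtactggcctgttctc
Tpsg1: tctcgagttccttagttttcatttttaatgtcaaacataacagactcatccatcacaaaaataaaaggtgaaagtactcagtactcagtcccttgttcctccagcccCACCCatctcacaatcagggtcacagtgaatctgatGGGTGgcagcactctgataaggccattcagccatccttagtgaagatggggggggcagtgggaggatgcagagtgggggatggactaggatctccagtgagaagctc
The Guca2a window held CAGCTG 206 bases before the RefSeq start and TGTTTAC 34 bases before it, the Tpsg1 window held CACCC or its reverse complement at 143 and 107 bases, and the Creb3l4 window held none of the 5 strings. Over the 27025 promoters of the table, CAGCTG was found in 12.7%, TGTTTAC in 3.1%, CCACG in 28.2%, CACCC in 51.3% and TTTATG in 11.1%. Among the 19 member promoters the numbers were 5 for CAGCTG, 2 for TGTTTAC, 2 for CCACG, 12 for CACCC and 4 for TTTATG. No string was thus shared by the 3 windows, and a match of letters is a description only. GC content was 52.0% for Creb3l4, 57.2% for Guca2a and 48.0% for Tpsg1.

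The transmembrane mucins, which form the glycocalyx of the cell surface, went separate ways and none passed. Muc13, the highest of the 3 in mean CPM, was at 1195 and 1271 CPM in WT and 1866 and 1469 CPM in Vil-CREPTKO. Both knockout libraries were above WT, but they also differed from each other by more than the WT libraries did (log2 fold change 0.44, SE 0.21, edgeR adjusted p 0.416). Muc3 overlapped at 916 and 1476 CPM in WT and 1232 and 945 CPM in Vil-CREPTKO (-0.14, SE 0.27). Summed enterocyte markers, none of 9 at 0, were at 17680 and 23680 CPM in WT and at 29570 and 18680 CPM in Vil-CREPTKO, highest like Muc13 in replicate 1 of the knockout, and their part in Muc13 was not tested.

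Muc4, a large mucin that binds the receptor ErbB2, had the lowest log2 fold change of all 32 members and still did not pass. The gene (ENSMUSG00000079620, plus strand of chromosome 16, 32735886 to 32782391 in GRCm38) had 5498 and 3450 counts in WT and 662 and 2403 in Vil-CREPTKO, or 108 and 70.1 CPM against 15.2 and 48.9 CPM. Replicate 1 of the knockout was far below the other 3 libraries, and replicate 2 was closer to WT. Replicate 1 was also the library with the highest mitochondrial share (10.2%), and the part of that in the value was not tested. The log2 fold change was -1.47 (SE 0.44, 95% interval -2.47 to -0.46, edgeR adjusted p 0.150). It was -0.86 with replicate 1 of the knockout left out and -2.54 with replicate 2 left out, and of these the latter passed (adjusted p 0.000194). Muc4 shares 4973 bp with Muc20, another transmembrane mucin gene, on the opposite strand. Muc20 was also lower, at 78 and 36 counts in WT and 3 and 7 in Vil-CREPTKO (-3.37, SE 0.68, edgeR adjusted p 0.0390). Whether counting used strand is not stated, and the part of Muc4 reads in the low Muc20 counts was not tested.

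**Figure D4:**
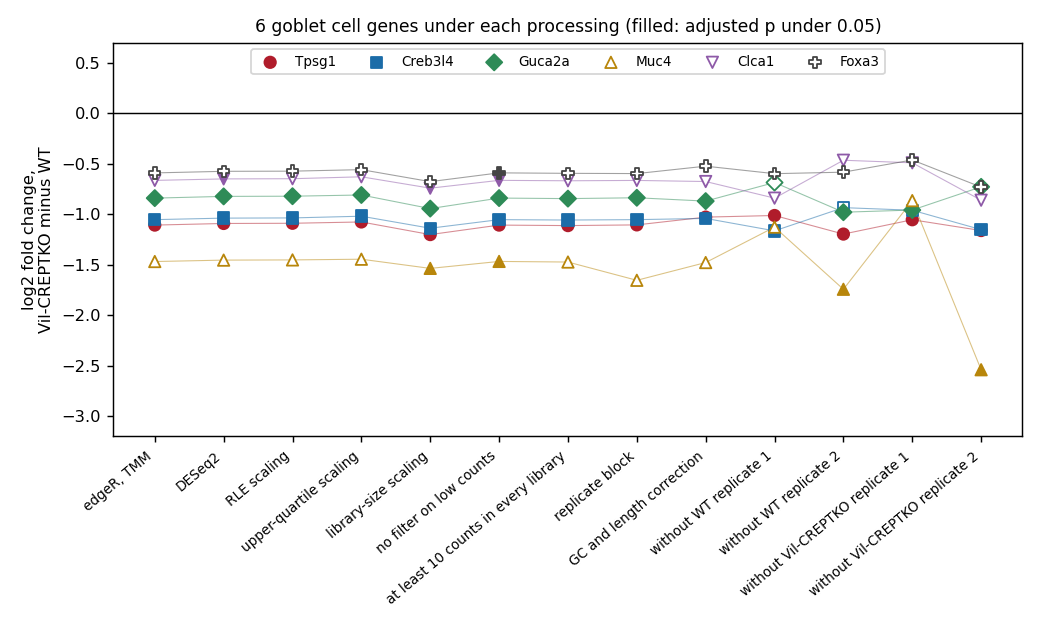
log2 fold change, Vil-CREPTKO minus WT, of 6 goblet cell genes under the main processing (leftmost) and each of 12 alternatives, with filled symbols for an adjusted p under 0.05. Tpsg1 is filled throughout and stays between -1.20 and -1.01, while Muc4 ranges from -2.54 to -0.86 and is filled in 4 alternatives.

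The further genes of mucin production were read from the same fit. Of 34 other genes of mucin-type O-glycosylation, 32 were tested, 16 of either sign, and their median log2 fold change was -0.019. St6galnac2, which adds sialic acid to the innermost sugar of O-glycans, fell from 71.6 and 61.3 CPM to 32.7 and 32.2 CPM (log2 fold change -1.03, SE 0.13, edgeR adjusted p 0.00614). A further gene model of the same symbol lies on the same strand inside it, and reads of both models could be split between them. B3galt5, a galactosyltransferase, rose from 6.21 and 6.16 CPM to 13.4 and 17.1 CPM (log2 fold change 1.30, SE 0.19, edgeR adjusted p 0.0105). Of the 32 tested, 1 thus passed as lower and 1 as higher, beside 2.29% and 0.423% of all genes tested. St6galnac1 and Chst5 had 0 counts in all 4 libraries, which allows up to 3 counts, or 0.0588 to 0.069 CPM, in a library.

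The ER folding and export genes, which handle mucins before glycosylation, were nearly level, with all 28 tested, a median of 0.062 and 12 negative. Ssr4, a subunit of the translocon-associated protein complex, fell from 140 and 131 CPM to 46.9 and 37.4 CPM (-1.69 on the log2 scale, SE 0.14, adjusted p 0.00144 in edgeR) and was the only member of this list to pass. That is 1 of 28 lower and 0 higher, beside 2.29% and 0.423% of all genes tested. Among the rest, the lowest value was -0.69 (SE 0.23) for Kdelr3 and the highest 0.34 (SE 0.15) for Sec61b, and Xbp1, the factor activated by IRE1 enzymes, was at -0.58 (SE 0.14, edgeR adjusted p 0.0698).

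Of 23 other genes known from goblet cells, all were tested, 19 were negative (50.92% of all genes tested) and the median was -0.27. Of the 23, 5 passed as lower and 1 as higher, beside 2.29% and 0.423% of all genes tested. Klk1, a kallikrein, was at -0.72 (SE 0.12, edgeR adjusted p 0.0198), and Lrrc26, a subunit of BK potassium channels, fell furthest, from 15.4 and 17.5 CPM to 2.78 and 3.63 CPM (-2.36, SE 0.21, edgeR adjusted p 0.00161). Ttc39a was at -1.05, Smim6 at -1.13 and Hgfac, a serine protease, at -1.14, with edgeR adjusted p from 0.00854 to 0.0222. Smim6 shares 1904 bp with Recql5 on the opposite strand, which was at -0.70 (SE 0.18), and the part of shared reads was not tested. Retnlb, the antibacterial peptide RELMβ, was the single gene that rose, from 31.3 and 29.3 CPM to 295 and 418 CPM (3.56, SE 0.20, edgeR adjusted p 0.000632). This list, like the members, was drawn up with earlier results of these data known.

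**Figure D5:**
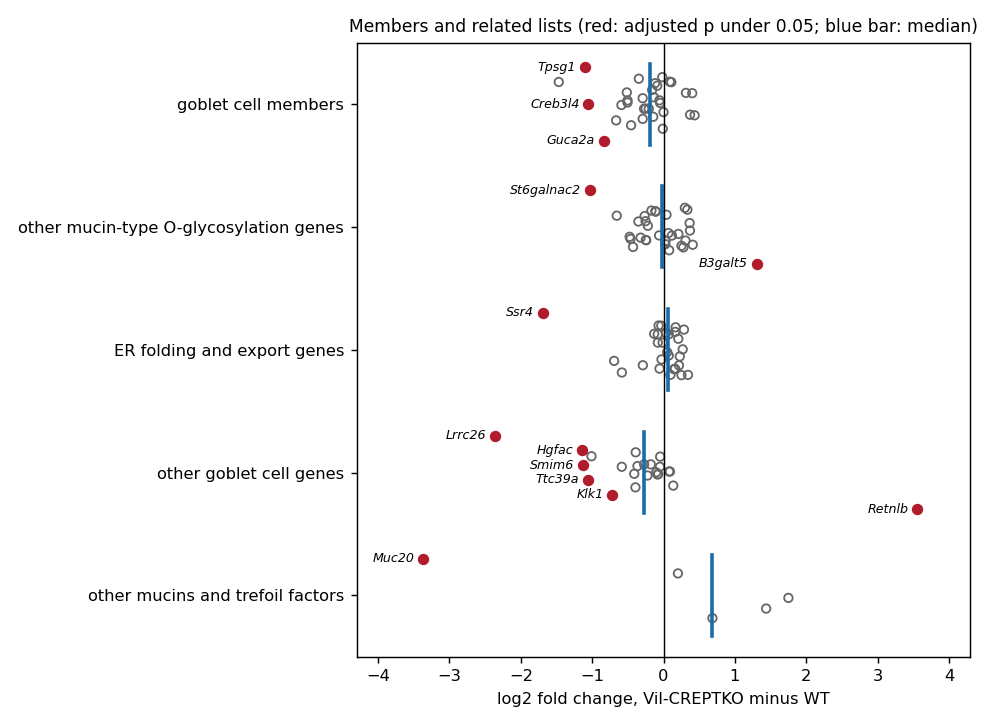
log2 fold change, Vil-CREPTKO minus WT, of the goblet cell members and of 4 related gene lists, 1 point per gene tested, spread vertically for legibility only. Red points have an adjusted p under 0.05 and are named, and blue bars are medians (-0.18 for the members, -0.019 and 0.062 for O-glycosylation and ER genes, -0.27 for other goblet cell genes, 0.69 for 5 other mucins and trefoil factors). The last median rests on genes with few counts. For these genes WT replicate 2 minus WT replicate 1 had a median of -2.01 on the log2 scale.

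Markers of the other secretory and of absorptive cells were read beside the goblet cell genes. All 8 tuft cell markers were negative and had both knockout libraries below both WT libraries, beside 24.2% of all genes tested. Of these 8 markers, 4 passed as lower, beside 2.29% of all genes tested. Their summed level was 245 and 309 CPM in WT and 150 and 143 CPM in Vil-CREPTKO, with no marker at 0. Of the Paneth and enteroendocrine lists none passed. The 8 Paneth markers summed to 12110 and 17840 CPM in WT and 17470 and 18120 CPM in Vil-CREPTKO, and Defa24 alone averaged 7946 and 9794 CPM. Both knockout libraries were below both WT libraries for 2 of them (Defa17 and Clps) and above for 1 (Mmp7), beside 24.2% and 21% of all genes tested. The 8 enteroendocrine markers summed to 344 and 327 CPM in WT and 391 and 479 CPM in Vil-CREPTKO. For 4 of them both knockout libraries were above both WT libraries and for 0 below, beside 21% and 24.2% of all genes tested. Summed immune markers were at 842 and 672 CPM in WT and 634 and 534 CPM in Vil-CREPTKO, none of 9 passing. The part of these cells in the values of Creb3l4, Guca2a and Tpsg1 was not tested.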

How the data were processed

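RNA was extracted with Trizol from crypts released with 2 mM EDTA and passed through a 70 µm strainer. The deposited values are whole-number read counts per Ensembl gene, 1 column per library, made by the authors by mapping to reference transcripts of GRCm38.p6 with Bowtie2 and RSEM. Their versions and the use of strand are not given in the sources used here, CASAVA 1.8 is listed in the submitters' processing notes, and the instrument is BGISEQ in the methods but Illumina in the record. Counts carry no molecular identifiers, so the limit that a count of 0 allows covers counting error only.

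Groups came from the sample titles. In R 4.3.3, edgeR 4.0.16 was fitted to all 4 libraries (filterByExpr, TMM, glmQLFit and glmQLFTest with group alone, two-sided, Benjamini-Hochberg over 17504 genes). A gene passed at an adjusted p under 0.05. The SE is the log2 fold change divided by the square root of F. CPM is TMM-scaled over the tested genes, and FPKM here is CPM per kilobase of exonic length in GENCODE M21 (GRCm38), which matched 53360 of 53845 rows. The 380 unnamed loci (0.178% to 0.247% of counts) were kept. The common biological coefficient of variation was 0.188, so spread between libraries and not depth set the precision for genes with many counts. For low counts, such as 15 to 69 for B3gnt6 or 3 and 7 for Muc20 in Vil-CREPTKO, counting error adds to it. Libraries of a group differed far beyond sampling noise (chi-square per gene 49.8 in WT and 70.1 in Vil-CREPTKO).

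Members and lists were chosen with earlier results of these data known. Values per library are given for members that passed and, in each role, for the most abundant, highest and lowest, and for Muc2, Spink4, Spdef, Foxa3, B3gnt6 and Muc3, which were added after their values were seen. Alternatives were DESeq2 1.42.0, scaling by RLE, by upper quartile or by library size, no low-count filter, a minimum of 10 counts in each library, a term for the replicate number, a loess correction for GC content and length (span 0.5) and each library left out. The fit was also run on counts simulated with its own estimated dispersions. Changes of 2-fold or more were put into 200 genes, so that run says nothing about smaller changes. Protein sequences were not used here.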

Additional observations from a re-analysis of the deposited data

How the results depend on the processing

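Over 12 alternatives, 340 of 384 single-gene values kept their sign and their side of the threshold. Tpsg1 passed in all 12, Guca2a in 11 and Creb3l4 in 10. The number of members lower was 3 in the reported fit, beside 2.29% of all genes tested. DESeq2 gave 5 (Clca1 and Spink4 added), beside 3.96% of the genes to which it gave an adjusted p. Library-size scaling gave 5 (Clca1 and Muc4 added), beside 3.41% of all genes. Without a filter on low counts the number was 6 (Clca1, Foxa3 and Muc4 added), beside 3.21% of all genes. Without WT replicate 2, Muc4 passed (adjusted p 0.0142) and Creb3l4 did not. The member median was -0.28 with library-size scaling, which moved the median of all genes to -0.098, and -0.31 to -0.19 with a library left out. With a replicate block 3 members passed, the same 3, and it changed no other member call. The replicate numbers did not pair the libraries (r = 0.028 over 17504 genes, which are not independent replicates). The sign turned with DESeq2 for Agr2 (0.0061) and Galnt12 (0.016), with RLE scaling for Agr2 (0.0082), C1galt1c1 (0.0008246) and Galnt12 (0.017), with upper-quartile scaling for Agr2 (0.022), C1galt1c1 (0.016) and Galnt12 (0.031), without a filter for Galnt12 (0.00016), and with the GC and length correction for Atoh1 (0.0039), Galnt12 (0.072), Gfi1 (0.0047) and Klf4 (0.020). With a library left out, the range was -0.21 to 0.17 for Agr2, -0.096 to 0.0019 for Atoh1, -0.41 to 1.83 for B3gnt6, -0.062 to 0.028 for C1galt1c1, -0.38 to 0.10 for Foxa1, -0.10 to 0.097 for Galnt12, -0.28 to 0.13 for Gfi1, -0.35 to 0.19 for Klf4, -0.30 to 0.39 for Muc2, -0.44 to 0.25 for Muc3 and -0.20 to 0.37 for Zg16. Without a change of sign, the range was -0.33 to -0.0087 for Tff3, -0.24 to -0.056 for Spdef, -0.44 to -0.13 for Foxa2, -0.77 to -0.18 for Rep15, -0.74 to -0.32 for Ern2, -0.43 to -0.17 for Slc50a1, -0.32 to -0.099 for Sytl2, 0.24 to 0.58 for Fam3d and 0.25 to 0.60 for Muc13. The causes were not tested. With 2 libraries a group, SEs of members ran from 0.12 to 0.69.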

Other observations

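Of the gastric-type mucin and trefoil genes on the lists, Muc5ac, Tff2 and Muc6 were counted at low levels, with WT replicate 2 below the other 3 libraries, and Tff1 had 0 and 0 counts in WT and 1 and 3 in Vil-CREPTKO. These genes were picked out after their values were seen. Muc5ac, the gel-forming mucin of gastric surface cells, had 93 and 0 counts in WT and 93 and 197 in Vil-CREPTKO. Tff2, a trefoil peptide of gastric and duodenal glands, had 135 and 6 counts in WT and 166 and 182 in Vil-CREPTKO. Muc6, the mucin of the same glands, had 172 and 71 counts in WT and 147 and 214 in Vil-CREPTKO. Of Muc5ac, Tff2 and Muc6 none passed the test (edgeR adjusted p 0.542, 0.525 and 0.506).

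St3gal4, a sialyltransferase of the O-glycosylation list, was at 532 and 1345 CPM in WT and at 756 and 640 CPM in Vil-CREPTKO, so the WT libraries differed from each other by more than the group means did.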
